A study of Homo sapiens with 4 samples.

Results

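The 10 genes HNRNPA1, HNRNPA2B1, HNRNPA3, HNRNPC, HNRNPD, HNRNPDL, HNRNPH1, HNRNPK, HNRNPM and HNRNPR encode heterogeneous nuclear ribonucleoproteins (hnRNPs). Their cassette exons, which can be kept in or skipped from the messenger RNA, were described in MDA-LM2 cells. An event was taken when its skipped exon had the coordinates and strand of an exon of 1 of these genes in GENCODE release 29, or when both flanking exons did. All 47 events found matched through the skipped exon itself, and they held 45 different exons of the 39120 in the whole table. MDA-LM2 is a human breast cancer line derived from MDA-MB-231 by selection for lung metastasis. The cells were transfected by lipofection either with an SSE mimetic (below, the mimetic), an RNA made to mimic a structured splicing enhancer element, or with a scrambled oligo. Each group had 2 samples, which the labels do not place in separate cultures, and the dose and the time after transfection are not given here. The deposited tables hold 1 pooled set of reads per group, so no value carries a spread between replicates and no test across samples exists.

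hnRNPs bind nascent transcripts and act in splice-site choice, export, stability and translation of messenger RNA. Most of them hold RNA recognition motifs together with glycine-rich or tyrosine-rich tails, and several regulate their own transcripts through alternative exons, including exons that direct the RNA to nonsense-mediated decay (NMD). In carcinoma cells, hnRNPs are best known as regulators of other genes' cassette exons, many of them repressed when an hnRNP binds nearby.

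The sequences below show the exon boundaries on which the inclusion values rest. They come from GENCODE release 29 transcripts (hg38), and each runs 5′ to 3′ over 30 bases, with bases of the cassette exon in capitals and bases of the neighbouring exons in lower case. The 3 HNRNPC sequences are shown because the 2 forms of its coding cassette exon differ only by the bases tag at their start.
HNRNPC 161-nt form, exon kept: agagcaaacaagcagTAGAGATGAAGAATG
HNRNPC 158-nt form, exon kept: agagcaaacaagcagAGATGAAGAATGATA
HNRNPC, exon skipped: agagcaaacaagcagctggagttgatcaag
The HNRNPH1 and HNRNPA3 pairs are shown because their exons were called.
HNRNPH1 144-nt exon, kept: acagatatgttgaagTATTCAAGTCAAACA
HNRNPH1 144-nt exon, skipped: acagatatgttgaagggttggaaatcgtgc
HNRNPA3 141-nt exon, kept: gatttggaggtgatgGTGGCAACTATGGCG
HNRNPA3 141-nt exon, skipped: gatttggaggtgatggtaactatggtggtg
The next 2 pairs are shown because these cassettes tell known protein forms apart (B1 from A2, and the exon 7 forms of HNRNPD from the others).
HNRNPA2B1 36-nt exon, kept: gagtccgcgatggagAAAACTTTAGAAACT
HNRNPA2B1 36-nt exon, skipped: gagtccgcgatggagagagaaaaggaacag
HNRNPD 147-nt exon, kept: gtggaagaggtggtgGCCCCAGTCAAAACT
HNRNPD 147-nt exon, skipped: gtggaagaggtggtgaccagcagagtggtt
The HNRNPH1 60-nt exon is shown because its first bases repeat those of the exon that follows it, so the kept and skipped junctions read the same over these 30 bases.
HNRNPH1 60-nt exon, kept: acaaagcaaatatgcAACACAGATATGTAG
HNRNPH1 60-nt exon, skipped: acaaagcaaatatgcaacacagatatgtag

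For each exon the authors' tables give the percent spliced in (Ψ), the estimated fraction of transcripts that keep the exon, with a 95% credible interval. They also count reads in 4 classes. Inclusion reads fit only the transcript with the exon, skipping reads only the transcript without it, shared reads fit both and lie in the flanking exons, and the rest fit neither. Ψ is inferred from the first 3 classes together, so it can lie below 1 with no skipping read at all where shared reads are plentiful. Inclusion and skipping reads together are the isoform-specific reads, and an exon needed at least 10 of them per group to be tested. It was called higher or lower with the mimetic when Ψ differed by 0.1 or more and the authors' Bayes factor, which weighs a difference against none, reached 10. Ψ values, their intervals (in brackets) and Bayes factors below are the authors' unless given as recomputed. Read shares and ratios, with exact intervals, were computed from the deposited reads.

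The groups were not alike in depth or in the mix of read classes. Reads were summed over the 45977 events in both summaries, and a read that falls in several events counts in each. Isoform-specific reads came to 431105 with the mimetic and 2039336 with the scrambled oligo. Reads matching neither isoform numbered 34676430 with the mimetic and 53271172 with the scrambled oligo. The ratio of scrambled to mimetic reads was thus 4.73 for isoform-specific reads and 1.54 for reads matching neither isoform. Reads matching neither isoform made up 95.3% of all with the mimetic and 88.8% with the scrambled oligo. Over the members' exons the share had a median of 74.4% with the mimetic and 67.8% with the scrambled oligo. The mesenchymal markers CD44, FN1 and ANXA1 had 578 isoform-specific reads with the mimetic and 5312 with the scrambled oligo, while VIM and CAV1 had no event. The epithelial markers CDH1, ESRP1 and ESRP2 had 22 such reads with the mimetic and 49 with the scrambled oligo. The leukocyte genes PTPRC and LYZ had 19 with the mimetic and 28 with the scrambled oligo, with LYZ at 0 in the mimetic group. EPCAM, GRHL2, PECAM1, COL1A1 and ACTA2 had no event, so few of the line's markers could be checked here.

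Of the 45 exons, 41 were tested. With the mimetic, 4 were called higher and 2 lower, and 35 were not called. The 4 higher ones were both forms of the HNRNPC coding cassette exon, the HNRNPA3 exon and 1 HNRNPR exon, and the 2 lower ones were 1 coding exon of HNRNPH1 and 1 exon of the HNRNPC 5′ UTR. The called share was 14.6% of the members' tested exons, against 3.99% of all 8228 tested exons. Higher calls made up 9.76% against 3.1% of all, and lower calls 4.88% against 0.887%. Overlapping forms that share reads, such as the HNRNPC coding forms, count as separate exons in these shares, among the members and over all. The members' exons were also read more deeply than others. Their median was 63 isoform-specific reads with the mimetic and 467 with the scrambled oligo. Over all tested exons the medians were 19 with the mimetic and 78 with the scrambled oligo. The part of depth in the larger share was not tested. No test of the share was made, since the genes were chosen with results of these data known.

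Differences in the family's exons lay on both sides of 0. Their median Ψ difference (SSE mimetic minus scrambled) was 0, with quartiles of -0.04 and 0.05. Of the 41, 17 lay above 0, 19 below and 5 at 0. Over all tested exons the median was -0.03, with 2749 above 0 and 5200 below. The 95% credible intervals of the groups lay apart for 10 of the members' exons (24.4%), against 5.87% of all tested exons, with overlapping forms again counted separately. A two-sided Fisher's exact test on inclusion and skipping reads, with Benjamini-Hochberg adjustment over all tested exons, passed for 1 of the 41, against 1.01% of all. Unadjusted, 4 of the 41 had a p under 0.05, against 453 of the 8228. That test compares these read pools, not the conditions. It had no skipping read to work with in 8 of the 41 exons (19.5%, against 54.8% of all).

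**Figure D1:**
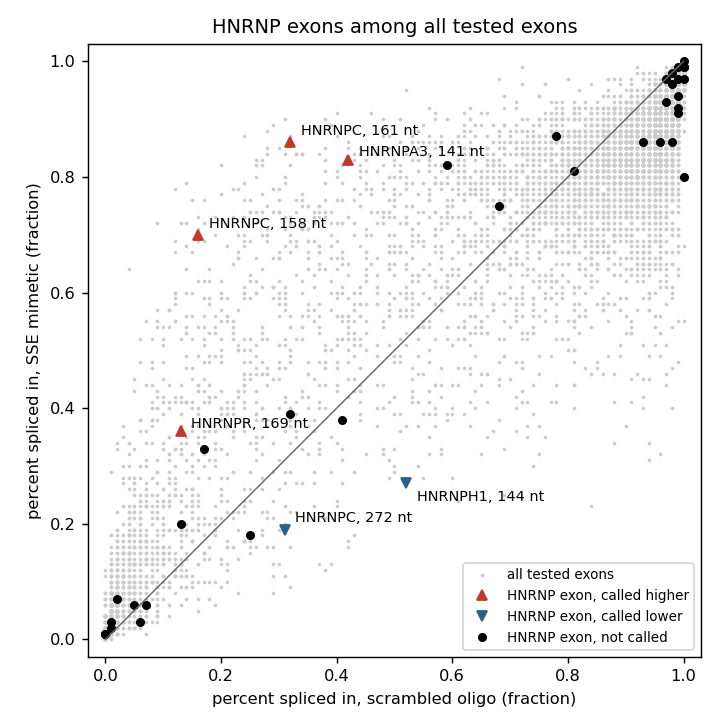
Percent spliced in (fraction) with the mimetic (vertical axis) against the scrambled oligo (horizontal axis) for all 8228 tested exons (grey) and the 41 tested HNRNP exons. Triangles mark the 6 called exons, and the 2 HNRNPC forms at 0.86 and 0.70 with the mimetic lie farthest above the diagonal among them.

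**Figure D2:**
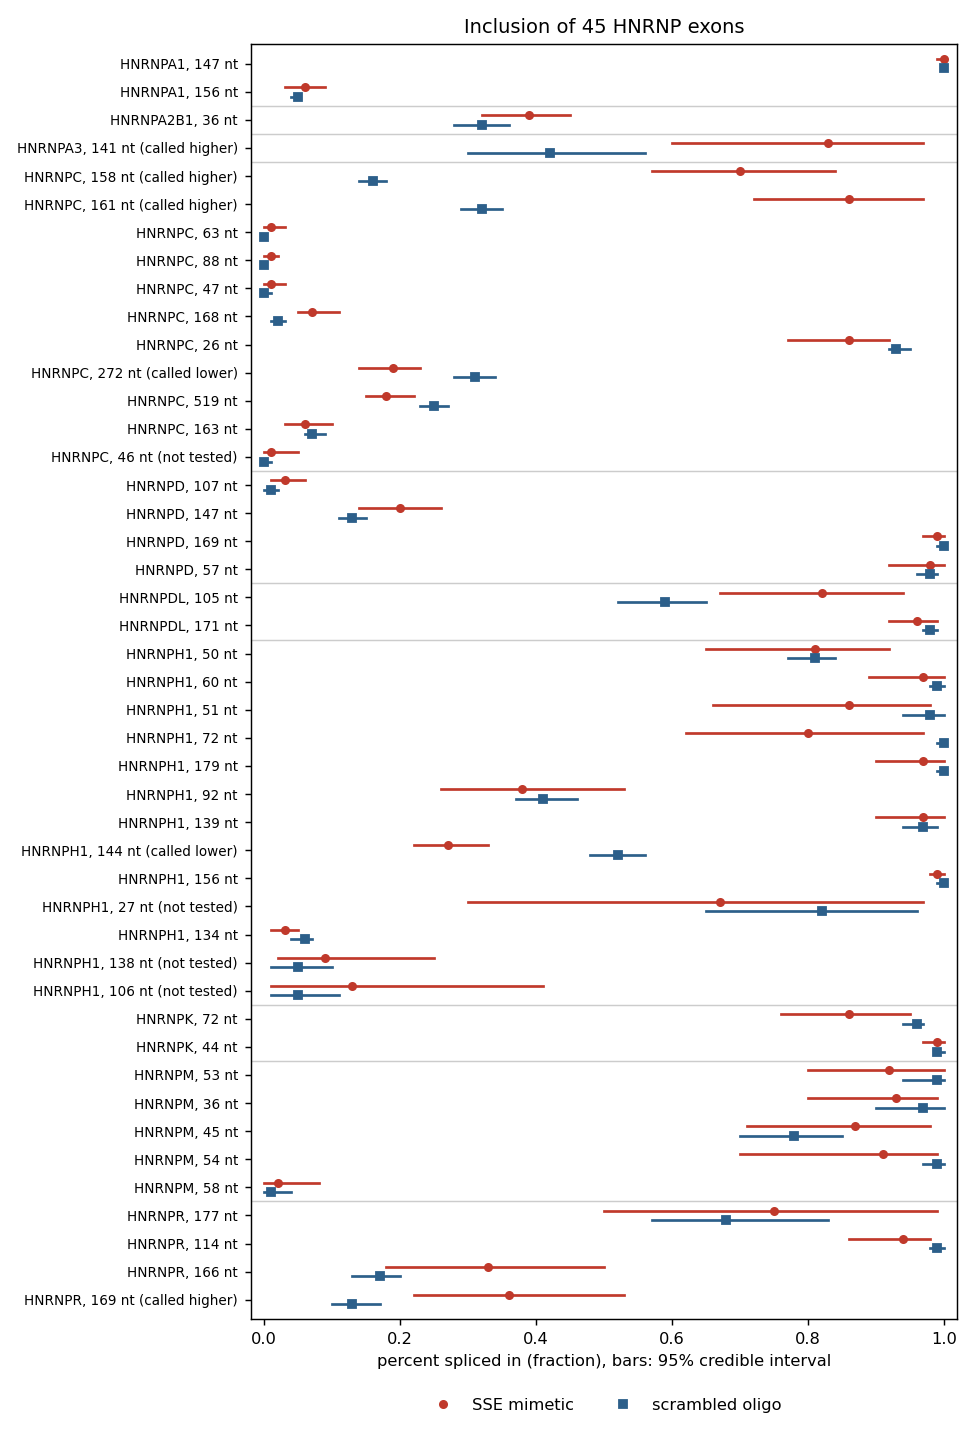
Percent spliced in (fraction) with its 95% credible interval for the 45 exons, by gene, with the mimetic (red circles) above the scrambled oligo (blue squares) in each row. Most pairs lie close together near 0 or near 1, and 10 of the 41 tested pairs have intervals that do not overlap.

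HNRNPC encodes an hnRNP that binds uridine-rich tracts of nascent transcripts and limits the use of cryptic exons. It had 11 of the 45 exons and 3 of the 6 calls. Its coding cassette exon lies on chromosome 14 from 21211406 to 21211563 (158 nt) or to 21211566 (161 nt), on the minus strand, between coding exons near the end of the gene. For the 161-nt form Ψ was 0.86 (0.72 to 0.97) with the mimetic, against 0.32 (0.29 to 0.35) in the scrambled group. Ψ of the 158-nt form was 0.70 (0.57 to 0.84) with the mimetic, against 0.16 (0.14 to 0.18) with the scrambled oligo. Both Bayes factors stood at the program's cap of 1e12, and neither length is a multiple of 3.

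The reads behind these values fell almost wholly into 2 classes. The 161-nt form had 139 inclusion, 0 skipping and 406 shared reads with the mimetic, against 476, 2 and 3769 with the scrambled oligo. The shorter form had 108 inclusion reads with the mimetic, against 232 with the scrambled oligo, and the skipping and shared reads were the same ones. Inclusion reads per shared read of the 161-nt form were thus 0.342 (95% interval 0.280 to 0.416) with the mimetic, against 0.126 (0.115 to 0.139) with the scrambled oligo. For the 158-nt form this ratio was 0.266 (0.213 to 0.330) with the mimetic, against 0.0616 (0.0537 to 0.0703) in the scrambled group. The inclusion share, meaning inclusion reads over isoform-specific reads, was 1.00 with the mimetic in both forms, against 0.996 for the 161-nt form and 0.991 for the 158-nt form with the scrambled oligo. Fisher's exact test gave a p of 1 for both. The calls therefore rest on inclusion reads relative to reads of the flanking exons. Reads matching neither isoform made up 37.1% of the reads of the 161-nt event with the mimetic and 26.7% with the scrambled oligo.

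Reads inside the exon body count for both forms, and the longer form gains the reads across its own junction while it lacks those across the junction of the shorter one. Its inclusion reads exceeded those of the shorter form by 31 with the mimetic and by 244 with the scrambled oligo. Per shared read this excess was 0.0764 with the mimetic and 0.0647 with the scrambled oligo. The measure was chosen after its values were seen. It is a difference of overlapping read counts, so it carries no interval and was not tested, and it can fall below 0, as for the 169-nt over the 166-nt form of an HNRNPR exon (1 with the mimetic and -19 with the scrambled oligo).

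Exact copies of HNRNPC sequence elsewhere bear on the same values. Of the 50-base windows of the 158-nt form and its junctions, 46.4% also occur in a transcript of another gene, as do 50% for the 161-nt form and 15.8% of the windows of the flanking exons. GENCODE lists 9 pseudogenes under the HNRNPC name. How reads from such copies entered the counts was not tested. With the read density of the flanking introns subtracted, the recomputed difference in Ψ was 0.853 for the 161-nt form and 0.822 for the 158-nt form, for which 23.3 inclusion reads were left with the mimetic and 0 with the scrambled oligo.

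The other 9 exons of HNRNPC lie in its 5′ UTR or in transcripts with no open frame, upstream of the first coding exon. The exon found in the most annotated transcripts there is 26 nt long (21263311 to 21263336). It had a Ψ of 0.86 (0.77 to 0.92) with the mimetic, against 0.93 (0.92 to 0.95) with the scrambled oligo, and was not called. It had 78 inclusion and 7 skipping reads with the mimetic, against 945 and 50 with the scrambled oligo. A 272-nt form with the same 3′ end (21263311 to 21263582) was called lower. Its Ψ was 0.19 (0.14 to 0.23) with the mimetic, against 0.31 (0.28 to 0.34) with the scrambled oligo, a difference of -0.12 with a Bayes factor of 61.05. It had 69 inclusion reads with the mimetic, against 591 with the scrambled oligo. Its shared reads, 442 with the mimetic and 2156 with the scrambled oligo, and its skipping reads are those of the 26-nt form. Its share of inclusion reads was 0.908 with the mimetic and 0.922 with the scrambled oligo, with a Fisher's exact p of 0.654. Per shared read, inclusion reads of the 272-nt form came to 0.156 (0.119 to 0.202) with the mimetic, against 0.274 (0.250 to 0.300) with the scrambled oligo, or 0.569 times as many. The uncalled 26-nt form, on the same shared reads, had 0.176 (0.137 to 0.225) with the mimetic, against 0.438 (0.406 to 0.473) with the scrambled oligo, or 0.403 times as many. Reads matching neither isoform made up 80.1% of the event's reads with the mimetic and 68.6% with the scrambled oligo.

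A 519-nt form that runs on upstream through the intron to take in the next exon had a Ψ of 0.18 (0.15 to 0.22) with the mimetic, against 0.25 (0.23 to 0.27) with the scrambled oligo. These intervals lie apart, but the difference of -0.07 was too small for a call, with a Bayes factor of 5.54. The 26, 272 and 519-nt forms overlap and are not independent readings. Uridine makes up 40.1% of the 272-nt form and 46.2% of the 26-nt form, against 17.1% of the 158-nt coding form. Among the gene's other exons uridine ran from 17.4% (161-nt coding form) to 42.9% (a 63-nt exon with no inclusion read). A part of uridine content in the differences was not tested. The exon that the 519-nt form takes in is 163 nt long (21263667 to 21263829), so it overlaps that form too. As a cassette of its own it had a Ψ of 0.06 with the mimetic and 0.07 with the scrambled oligo.

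Downstream of these, a 168-nt 5′ UTR exon (21262601 to 21262768) was the 1 member exon that passed Fisher's exact test. It had 23 inclusion and 40 skipping reads with the mimetic, against 37 and 445 with the scrambled oligo. The inclusion share was 0.365 (exact 95% interval 0.247 to 0.496) with the mimetic, against 0.0768 (0.0546 to 0.104) with the scrambled oligo. The p adjusted over all 8228 tested exons was 5.87e-06 by Fisher's exact test. Ψ was 0.07 (0.05 to 0.11) with the mimetic, against 0.02 (0.01 to 0.03) in the scrambled group, with a Bayes factor of 110.37. The difference of 0.05 is under the 0.1 set for a call. Reads matching neither isoform moved with it and made up 80.5% of the event's reads with the mimetic and 70.5% with the scrambled oligo. With the intron read density subtracted, 17.6 inclusion reads were left with the mimetic and 21.7 with the scrambled oligo.

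3 more exons in the same intron, of 63, 88 and 47 nt, shared these skipping reads (40 with the mimetic and 445 with the scrambled oligo) and had no inclusion read in either group. A count of 0 allows an inclusion share of up to 0.075 with the mimetic and 0.00674 with the scrambled oligo. The remaining exon, of 46 nt, had no inclusion read and too few skipping reads for a test. HNRNPC also makes proteins known as C1 and C2, which differ by the choice of a donor site and not by a cassette exon, so no event here tells them apart.

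**Figure D3:**
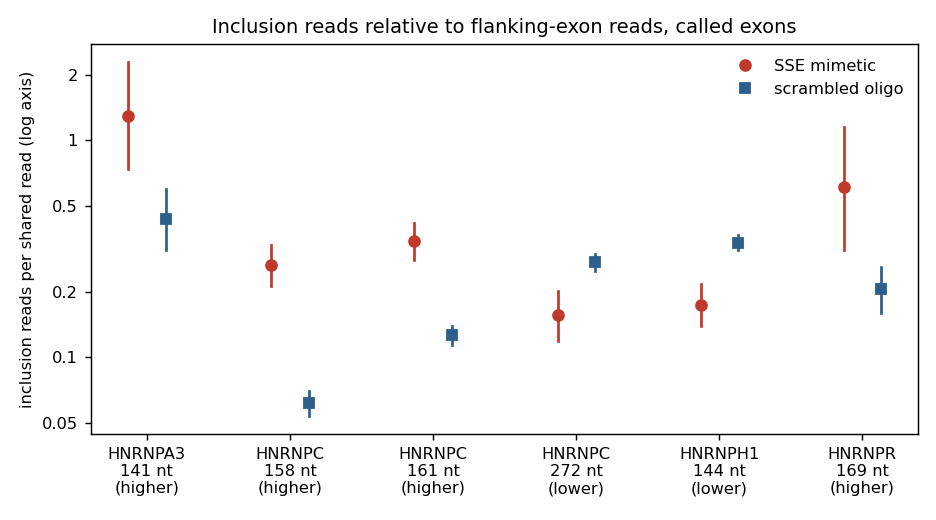
Inclusion reads per shared read (log axis) with exact 95% intervals for the 6 called exons, mimetic (red circles) left of scrambled oligo (blue squares). Among these, the ratio was higher with the mimetic for the HNRNPA3, HNRNPR and both HNRNPC coding exons, and lower for the HNRNPC 272-nt and HNRNPH1 144-nt exons.

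HNRNPA1, HNRNPA2B1 and HNRNPA3 encode A/B-type hnRNPs, abundant nuclear proteins that bind UAG-containing motifs and often repress exons. HNRNPA3 had a single event, a 141-nt coding exon in frame on chromosome 2 (177217705 to 177217845, plus strand), which was called higher. Its Ψ was 0.83 (0.60 to 0.97) with the mimetic, against 0.42 (0.30 to 0.56) with the scrambled oligo, with a Bayes factor of 57.15. It had 31 inclusion and 24 shared reads with the mimetic, against 56 and 129 with the scrambled oligo, and no skipping read in either group. A count of 0 allows a skipping share of up to 0.0968 with the mimetic and 0.0536 with the scrambled oligo. Inclusion reads per shared read were 1.29 (0.734 to 2.30) with the mimetic, against 0.434 (0.311 to 0.598) with the scrambled oligo. Exact copies in transcripts of other genes covered 93.2% of the inclusion windows and 100% of the flanking windows, and GENCODE lists 16 pseudogenes under this name. The part of these copies was not tested.

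HNRNPA1 had no call. Its 156-nt exon (chromosome 12, 54283079 to 54283234, plus strand), which marks the longer A1-B protein, was mostly skipped in both groups, at 0.06 (0.03 to 0.09) with the mimetic, against 0.05 (0.04 to 0.05) with the scrambled oligo. It had 16 inclusion and 98 skipping reads with the mimetic, against 127 and 949 with the scrambled oligo. The inclusion share was 0.140 (0.0824 to 0.218) with the mimetic, against 0.118 (0.0994 to 0.139) in the scrambled group, intervals that overlap. With the intron read density subtracted, 0 inclusion reads were left in either group, and the recomputed Ψ was 0.0048 with the mimetic and 0.0013 with the scrambled oligo. Copies in other genes covered 36.1% of its inclusion windows and 69.2% of its flanking windows. A 147-nt coding exon upstream (54281795 to 54281941) was read as always kept, at 1.00 in both groups, with 1035 inclusion reads with the mimetic, 4508 with the scrambled oligo and no skipping read. All windows of this exon also occur in transcripts of other genes, and GENCODE lists 74 pseudogenes under the HNRNPA1 name, so the gene and its copies cannot be told apart by this sequence.

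HNRNPA2B1 had 1 event, the 36-nt exon on chromosome 7 (26197831 to 26197866, minus strand) that marks the B1 protein. Its Ψ was 0.39 (0.32 to 0.45) with the mimetic, against 0.32 (0.28 to 0.36) with the scrambled oligo. The reads were 81 inclusion and 102 skipping with the mimetic, against 203 and 340 with the scrambled oligo. Inclusion shares were 0.443 (0.369 to 0.518) with the mimetic, against 0.374 (0.333 to 0.416) in the scrambled group, with overlapping intervals, a Bayes factor of 0.43 and a Fisher's exact p of 0.115. None of its windows has a copy in another gene.

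**Figure D4:**
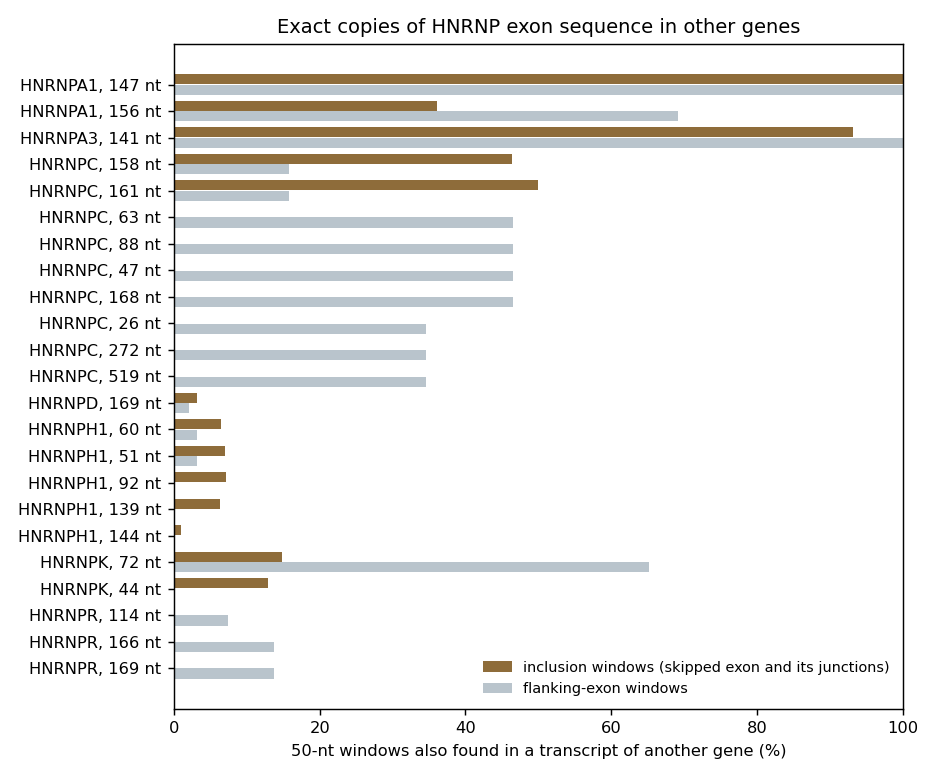
Percentage of 50-base windows that also occur in a transcript of another gene, for inclusion windows (brown) and flanking-exon windows (grey) of the exons with any such window. The HNRNPA1, HNRNPA3 and HNRNPC coding exons stand highest in inclusion windows, from 36.1% to 100%, and exons with none are left out.

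HNRNPH1 encodes an hnRNP that binds runs of guanines and can promote or repress exons. With 13 exons, 10 of them tested, it had the most events of the family and 1 call. A 144-nt coding exon in frame (chromosome 5, 179620892 to 179621035, minus strand) was called lower, at 0.27 (0.22 to 0.33) with the mimetic, against 0.52 (0.48 to 0.56) with the scrambled oligo, with the Bayes factor at the cap. It had 97 inclusion, 0 skipping and 556 shared reads with the mimetic, against 831, 1 and 2461 with the scrambled oligo. Inclusion reads per shared read were 0.174 (0.139 to 0.217) with the mimetic, against 0.338 (0.312 to 0.365) with the scrambled oligo. The inclusion share was 1.00 with the mimetic and 0.999 with the scrambled oligo, a difference of 0.0012 in the opposite direction, and Fisher's exact test gave a p of 1. Reads matching neither isoform made up 38.5% of the event's reads with the mimetic and 51.8% with the scrambled oligo. Copies in other genes covered 1.04% of its inclusion windows and none of its flanking windows. In GENCODE, 21 transcripts hold the exon and 1 has the skipping junction.

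The exon just upstream had more inclusion than shared reads. It is 156 nt long (179621242 to 179621397), was the exon with most isoform-specific reads in the gene, and had 472 inclusion and 96 shared reads with the mimetic against 1897 and 488 with the scrambled oligo. Its Ψ was 0.99 (0.98 to 1.00) with the mimetic, against 1.00 (0.99 to 1.00) in the scrambled group. Inclusion reads per shared read were 4.92 with the mimetic and 3.89 with the scrambled oligo. For the 144-nt exon the ratio with the mimetic was 0.517 times that with the scrambled oligo. For uncalled exons of the gene this quotient was 0.514 (72 nt), 0.540 (179 nt) and 0.376 (134 nt), each also with intervals of the ratio that lie apart.

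A 72-nt coding exon of HNRNPH1 had a Ψ of 0.80 (0.62 to 0.97) with the mimetic, against 1.00 (0.99 to 1.00) with the scrambled oligo. It had 59 inclusion reads with the mimetic, 1230 with the scrambled oligo and no skipping read, and the Bayes factor of 1.38 was too low for a call although the intervals do not overlap. A 134-nt exon found in NMD transcripts had a low Ψ, at 0.03 (0.01 to 0.05) with the mimetic, against 0.06 (0.04 to 0.07) in the scrambled group. It had 10 inclusion and 43 skipping reads with the mimetic, against 92 and 371 with the scrambled oligo. The inclusion share was 0.189 (0.0944 to 0.320) with the mimetic, against 0.199 (0.163 to 0.238) with the scrambled oligo, intervals that overlap. For the other 6 tested exons the Ψ intervals of the groups overlapped. Ψ was 0.97 in both groups for the 139-nt exon and 0.81 in both for the 50-nt exon. The 92-nt form of the 139-nt exon had 0.38 with the mimetic and 0.41 with the scrambled oligo. The 60-nt exon had 0.97 with the mimetic and 0.99 with the scrambled oligo, and its 51-nt form 0.86 with the mimetic and 0.98 with the scrambled oligo. The 179-nt exon had 0.97 with the mimetic and 1.00 with the scrambled oligo. The first 58 bases of the 60-nt exon are those of the next exon, so reads across its junctions are hard to assign. 3 exons of HNRNPH1, of 27, 138 and 106 nt, had too few reads for a test.

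HNRNPD and HNRNPDL are close relatives, and their proteins bind AU-rich elements of messenger RNA. HNRNPD encodes AUF1, whose 4 protein forms p37, p40, p42 and p45 are set by 2 cassettes. The 147-nt exon of p42 and p45 (chromosome 4, 82356537 to 82356683, minus strand) was not called, at 0.20 (0.14 to 0.26) with the mimetic, against 0.13 (0.11 to 0.15) with the scrambled oligo. It had 47 inclusion and 50 skipping reads with the mimetic, against 161 and 306 with the scrambled oligo. As a share of isoform-specific reads, inclusion came to 0.485 (0.382 to 0.588) with the mimetic, against 0.345 (0.302 to 0.390) in the scrambled group. Fisher's exact p was 0.0110, or 0.353 after adjustment over all tested exons. The 57-nt exon of p40 and p45 was mostly kept, at 0.98 in both groups, with 67 inclusion and 0 skipping reads with the mimetic and 490 and 9 with the scrambled oligo. Its inclusion reads per shared read were 0.351 (0.261 to 0.466) with the mimetic, against 0.845 (0.748 to 0.954) with the scrambled oligo. A 169-nt exon, the best read of the gene, stood at 0.99 with the mimetic and 1.00 with the scrambled oligo. A 107-nt exon of an NMD transcript stood at 0.03 with the mimetic and 0.01 with the scrambled oligo.

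HNRNPDL had the uncalled exon nearest to a call. This 105-nt exon (chromosome 4, 82425563 to 82425667, minus strand) is annotated in NMD transcripts, and its Ψ was 0.82 (0.67 to 0.94) with the mimetic, against 0.59 (0.52 to 0.65) with the scrambled oligo. The Bayes factor of 8.78 lay just under the 10 set for a call. It had 32 inclusion and 4 skipping reads in the mimetic group, against 149 and 83 in the scrambled group. The inclusion share was 0.889 (0.739 to 0.969) with the mimetic, against 0.642 (0.577 to 0.704) with the scrambled oligo, intervals that lie apart. Fisher's exact test gave a p of 0.00352 and an adjusted p of 0.157. Its inclusion reads per shared read were 0.140 (0.0938 to 0.204) with the mimetic, against 0.152 (0.127 to 0.180) with the scrambled oligo, intervals that overlap. None of its windows has a copy in another gene. The 171-nt coding exon upstream, the best read of the gene, was kept at 0.96 (0.92 to 0.99) with the mimetic, against 0.98 (0.97 to 0.99) in the scrambled group. It had 288 inclusion and 3 skipping reads with the mimetic, against 1956 and 10 with the scrambled oligo.

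**Figure D5:**
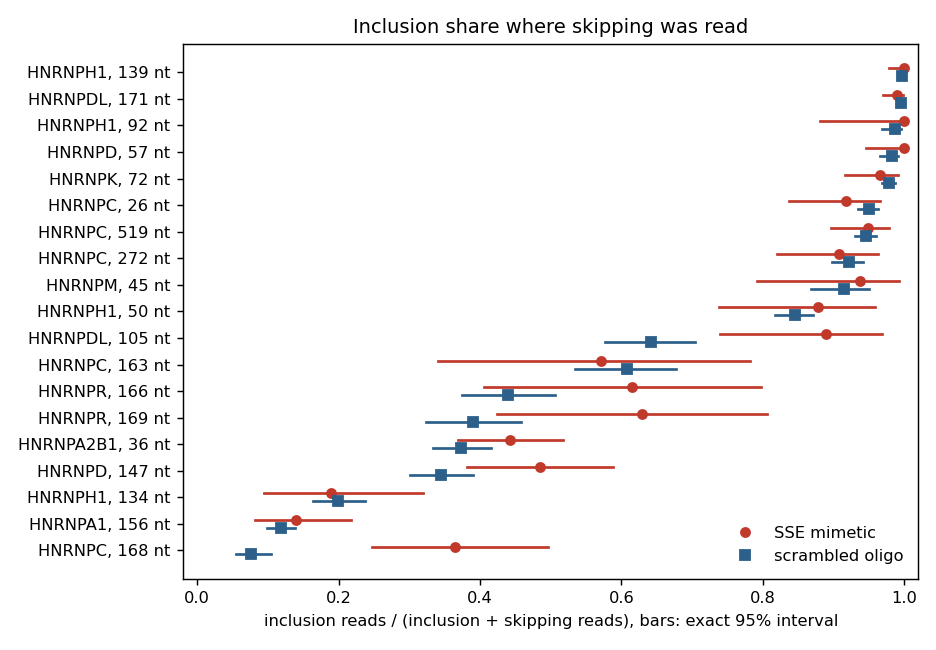
Share of inclusion reads among inclusion and skipping reads with exact 95% intervals, for tested HNRNP exons with at least 5 inclusion and 5 skipping reads in the scrambled group, mimetic (red circles) above scrambled oligo (blue squares). Intervals lie apart for the HNRNPC 168-nt and HNRNPDL 105-nt exons, and overlap for the others, the HNRNPR 169-nt and HNRNPD 147-nt exons narrowly.

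HNRNPK, HNRNPM and HNRNPR differ in how they bind RNA. HNRNPK binds cytosine-rich tracts through KH domains, HNRNPM binds GU-rich motifs and is known to favour mesenchymal splicing of CD44 in breast cancer cells, and HNRNPR is a relative of SYNCRIP with RNA recognition motifs. HNRNPR had the remaining call. A 169-nt exon that is coding over 157 nt (chromosome 1, 23340852 to 23341020, minus strand) had a Ψ of 0.36 (0.22 to 0.53) with the mimetic, against 0.13 (0.10 to 0.17) with the scrambled oligo. Its Bayes factor of 11.06 was the lowest among the 6 calls. It had 17 inclusion and 10 skipping reads with the mimetic, against 83 and 130 with the scrambled oligo. The inclusion share was 0.630 (0.424 to 0.806) with the mimetic, against 0.390 (0.324 to 0.459) in the scrambled group, with a Fisher's exact p of 0.0222 and an adjusted p of 0.539. Reads matching neither isoform made up 84.7% of the event's reads with the mimetic and 56.1% with the scrambled oligo. With the intron read density subtracted, the recomputed difference was 0.174 with a recomputed Bayes factor of 3.54, which is not a call. A 166-nt form of the same exon, at 0.33 (0.18 to 0.50) with the mimetic, against 0.17 (0.13 to 0.20) in the scrambled group, was not called.

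HNRNPR's 114-nt exon, the best read of the gene, was at 0.94 (0.86 to 0.98) with the mimetic, against 0.99 (0.98 to 1.00) with the scrambled oligo. Its 177-nt exon was at 0.75 (0.50 to 0.99) with the mimetic, against 0.68 (0.57 to 0.83) in the scrambled group. In HNRNPK, a 72-nt coding exon (chromosome 9, 83973902 to 83973973, minus strand) had a Ψ of 0.86 (0.76 to 0.95) with the mimetic, against 0.96 (0.94 to 0.97) with the scrambled oligo. It had 114 inclusion and 4 skipping reads with the mimetic, against 1062 and 23 with the scrambled oligo. Its inclusion share was 0.966 (0.915 to 0.991) with the mimetic, against 0.979 (0.968 to 0.987) in the scrambled group, intervals that overlap. Per shared read, inclusion reads came to 0.991 (0.758 to 1.30) with the mimetic, against 3.27 (2.88 to 3.71) with the scrambled oligo, intervals that lie apart. Copies in other genes covered 14.9% of its inclusion windows and 65.2% of its flanking windows. A 44-nt coding exon of HNRNPK was kept at 0.99 in both groups, on 212 inclusion reads with the mimetic and 1452 with the scrambled oligo.

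None of the 5 HNRNPM exons was called. Of these, 4 were mostly kept, each with overlapping Ψ intervals. The 36-nt exon had a Ψ of 0.93 with the mimetic and 0.97 with the scrambled oligo, while the 45-nt exon had 0.87 with the mimetic and 0.78 with the scrambled oligo. The 53-nt exon had 0.92 with the mimetic and 0.99 with the scrambled oligo, while the 54-nt exon had 0.91 with the mimetic and 0.99 with the scrambled oligo. The 54-nt exon, with the most isoform-specific reads of the gene in the scrambled group and the fewest in the mimetic group, had 18 inclusion reads with the mimetic and 308 with the scrambled oligo. Per shared read these came to 0.310 (0.172 to 0.534) with the mimetic, against 1.41 (1.18 to 1.68) with the scrambled oligo. The 45-nt exon had 1.88 (0.990 to 3.68) with the mimetic, against 0.647 (0.534 to 0.782) with the scrambled oligo. A 58-nt exon had no inclusion read, beside 21 skipping reads with the mimetic and 80 with the scrambled oligo.

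Inclusion reads per shared read had intervals that lay apart in 16 of the 36 tested exons that had both kinds of read in both groups. They were higher with the mimetic in 6, of which 2 were not called, and lower in 10, of which 8 were not called. This count was not made over all tested exons, so it cannot be read as a trait of the family. Pooled over the whole table, inclusion reads per shared read were 0.301 with the mimetic and 0.364 with the scrambled oligo.

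The 6 called exons were 141 to 272 nt long, 4 of them wholly coding, and 2 were in frame. Of all 45, 26 were wholly coding, 4 partly coding and 15 not coding, and 24 had a length in frame. In both groups, 13 tested exons stood at a Ψ of at least 0.9 and 9 at 0.1 or below. Such exons can hardly differ by the 0.1 that a call needs. That none of the 6 called ones was among these thus follows from the rule. Isoform-specific reads summed over a gene's exons, not scaled for depth, were more numerous with the scrambled oligo in all 10 genes. Reads shared by overlapping forms, as in HNRNPC and HNRNPH1, count more than once in these sums. The ratio of scrambled to mimetic reads was lowest for HNRNPA3, at 1.81, and highest for HNRNPH1, at 8.22, beside 4.73 over the whole table. Such totals depend on sequencing depth and on the mix of read classes, and they measure neither cell number nor RNA per cell.

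Of 18 other hnRNP genes and close partners, listed by name and not by how they moved, 13 had tested exons. In these 35 exons none was called higher and 2 were called lower (5.71%), both forms of 1 exon of HNRNPUL1. On chromosome 19, its 192-nt form lies from 41305676 to 41305867, and its Ψ was 0.34 (0.19 to 0.51) with the mimetic, against 0.88 (0.79 to 0.96) with the scrambled oligo. It had 16 inclusion, 0 skipping and 403 shared reads with the mimetic, against 195, 1 and 1677 with the scrambled oligo. The 222-nt form stood at 0.39 (0.24 to 0.56) with the mimetic, against 0.74 (0.63 to 0.84) in the scrambled group. The median Ψ difference of the 35 exons was -0.02. Fisher's exact test passed for 0 of them once adjusted and, unadjusted, for 1 with a p under 0.05.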

How the data were processed

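RNA of MDA-LM2 cells was sequenced from ScriptSeq v2 libraries, per the labels' protocols. Reads were aligned with STAR 2.7 to hg38, per the submitters' processing notes. The deposited tables have the layout of MISO skipped-exon summaries, per the file headers, and its version, its event set and how samples were pooled are not given here. Ψ and its interval bounds were deposited as a fraction. The deposited Bayes factor is a ratio, capped by the authors' program at 1e12. The authors also deposited the Ψ difference and, in other units as text, the reads per isoform class.

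Events were reduced to 1 per skipped exon, the one with most isoform-specific reads. Calls, Fisher's exact tests and their adjustment ran over all 8228 tested exons (SciPy 1.17.1, pandas 2.3.3). Intervals of shares and of inclusion reads per shared read are exact binomial. They and the limits at a count of 0 (3 counts) cover counting error only, since reads that carry no molecular identifier can stem from the same molecule. Ψ was recomputed with a 2-isoform likelihood at a read length of 76 nt. This was tested only on reads simulated from the same 2-isoform model, without reads from introns or copies. The simulation therefore cannot show how the likelihood fares where such reads occur. Ψ was also recomputed after subtraction of intron read density, which was taken from all reads matching neither isoform. Copies were exact 50-base matches among GENCODE release 29 transcripts. The members and lists were chosen with earlier results of these data known. Named exons were those called, the best read of each gene (most isoform-specific reads over both groups) and those that mark known protein forms, with others added after their values were seen. Intron, promoter and protein sequences were not analysed here.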

Additional observations from a re-analysis of the deposited data

How the results depend on the processing

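No paired analysis was possible because the deposited tables hold 1 pooled read set per group, and for the same reason no replicate could be left out. The 4 higher calls remained 4 or became 5 under other read minimums, a Bayes factor of at least 5, a Ψ difference of at least 0.2, every event counted, exact matching, recomputation and intron subtraction, with HNRNPDL 105 nt joining in 3 of these settings and HNRNPR 169 nt lost after subtraction. They became 2 with a Bayes factor of at least 100 (HNRNPC 158 and 161 nt), 2 with inclusion shares used for Ψ (HNRNPC 168 nt and HNRNPR 169 nt) and 0 with Fisher's exact test. The 2 lower calls became 1 with a Bayes factor of at least 100, 1 with a difference of at least 0.2, 0 with Fisher's exact test and 0 with the inclusion share. On that share the HNRNPH1 144-nt exon had a difference of 0.0012, against -0.25 in Ψ. Over all tested exons, 255 higher calls became 139 with a minimum of 20 reads, 430 with none, 126 with a Bayes factor of at least 100 and 67 with Fisher's exact test. The 73 lower calls became 115 with a minimum of 5 reads, 45 with 20, 214 with none, 38 with a Bayes factor of at least 100, 0 with Fisher's exact test and 6 with the inclusion share. The 2 HNRNPUL1 calls became 1 with a Bayes factor of at least 100. The cause was not tested. Depth limits precision, with a median credible interval width in Ψ, for counting error only, of 0.11 with the mimetic and 0.03 with the scrambled oligo over the members' tested exons.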
